A study of Danio rerio with 2 samples.

Results

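This account describes the genes whose transcripts were at least 2-fold more abundant in U12-splicing-deficient zebrafish larvae than in wildtype larvae. A Refseq ID was counted as a member when its gene value in the mutant library was at least 1 and the ratio of mutant to wildtype gene value was at least 2. The gene value behaves as RPKM, that is, reads scaled by gene model length and by the library total. Of 10223 IDs with a gene value, 94 met both conditions, which is 0.928% of the 10126 IDs with a mutant value of at least 1. From these, 11 IDs were set aside, 7 of them genes of sterol synthesis, and the 83 that remained are the members described here. Since the ratio itself chose them, their gene ratios are a description and no test was made on them.

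One library came from homozygous wildtype larvae of Danio rerio and one from larvae homozygous for clbns841, the caliban mutation. Both pools held about 60 whole larvae of 108 hours post-fertilization, genotyped one by one, raised at 28.5 °C and kept in 0.003% PTU, a blocker of pigment synthesis, from 24 hours. Poly(A) RNA was selected before sequencing. With 1 pool per genotype no difference has a replicate check, and every interval below is a 95% interval (exact, Clopper-Pearson) that covers counting error alone. In whole larvae, a change in the number of cells of a type and a change in RNA per cell cannot be told apart.

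The mutated gene is rnpc3, and its product belongs to the U11/U12 particle. That particle recognises minor (U12-type) introns, a rare class spliced by its own spliceosome, and transcripts that keep such an intron are often held in the nucleus or degraded. Neither intron class nor promoter or protein sequence was used here.

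The libraries held 28309779 reads (wildtype) and 25718058 reads (mutant), and the rnpc3 gene value was 5.70 and 2.503, a ratio of 0.440 (0.349 to 0.551). Genes of many organs were present, from skeletal muscle to skin. Markers of the acinar pancreas (10 of 10) and of the lens (5 of 6 measured) were lower by 2-fold or more, against 1.16% of all symbols. The markers of liver, intestine, muscle, neurons, photoreceptors, neutrophils, macrophages, red blood cells, skin, and mucus cells with ionocytes held no gene that was 2-fold higher. Of all symbols 0.906% were, so lists of this size would mostly hold none. Whether the smaller share of pancreas and lens RNA bears on the members was not tested.

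Most members were weakly expressed genes that lay close to the threshold. The median member had a gene value of 1.12 in wildtype and 2.80 in the mutant library, whereas the median over all IDs was 7.74 and 8.07. Their ratios ran from 2.00 to 7.71 with a median of 2.28, and 56 of 83 were under 2.5. A mutant value of 10 or more was reached by 14 members. The table lists an ID only if at least 1 of its values is 1 or more, because the larger of both values was never below 1.00. The 37 members with a wildtype value under 1 were therefore listed through the mutant library alone and had to differ in this direction. Among the 148 IDs with such a wildtype value 27.0% met the rule, and among the 10075 IDs with a wildtype value of at least 1 it was 0.536%. Members with a wildtype value under 1 occurred in every role group below except the mitochondrial one.

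**Figure D1:**
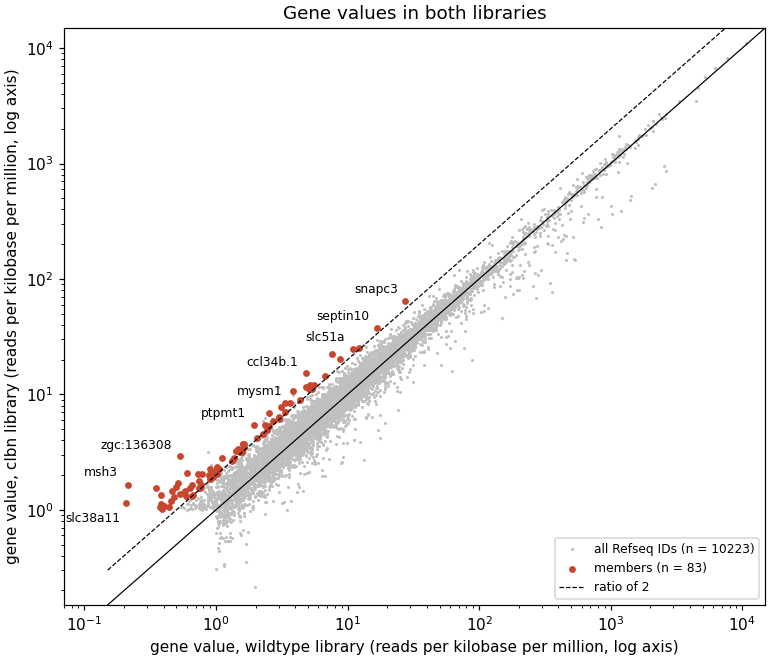
Gene values (RPKM-like, log axes) of all 10223 Refseq IDs (grey) and of the 83 members (red) in the wildtype library (x axis) and the clbn library (y axis). The members lie on or above the dashed line of a 2-fold ratio, and most of them are at the low end of the range, with a median wildtype value of 1.12.

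The recovered gene reads were few for many members. The median member had 91 over both libraries, and 25 members had under 50. The interval of the ratio lay above 1 for 73 members (25.8% of IDs with a mutant value of at least 1), had a lower bound of at least 1.5 for 38 (0.83% of those IDs) and of at least 2 for 8 (0.128%). The ratio that chose the members sets these counts. These 8 were msh3, zgc:113229, ccl34b.1, an ID without a symbol (NM_001076705), ptpmt1, dao.1, mysm1 and slc51a. The 10 members whose interval included 1 were slc38a11, zgc:112966, si:dkey-261e22.4, zgc:158868, snapc3, nmrk1, loxl2a, hcst and the IDs NM_001114919 and NM_001006099. Gene reads are the smallest whole numbers that give both deposited values, so true reads may be a multiple of them, and an interval is then wider than it should be. The length recovered with the reads was under 200 bp for 10 members. They were snapc3, NM_001006099, zgc:112966, septin10, me2, ocrl, NM_001114919, ptges3b, slc38a11 and ugt2b6. Reads given for these 10 may understate the true depth.

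**Figure D2:**
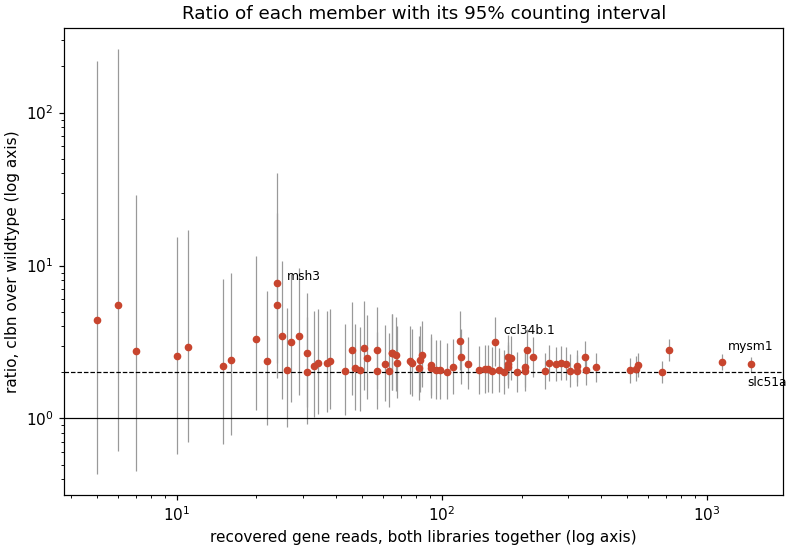
Ratio of gene values, clbn over wildtype (y axis, log), against recovered gene reads of both libraries together (x axis, log) for the 83 members, with 95% counting intervals. Intervals narrow from left to right, and slc51a at 1462 reads and mysm1 at 1134 reads have lower bounds of 2.02 and 2.06.

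Genes at least 2-fold lower, chosen by the mirrored rule, had another profile. There were 119 of them (1.18% of IDs with a wildtype value of at least 1), and 62 had a wildtype value of 10 or more. Under 200 gene reads over both libraries were held by 45 of these 119 and by 61 of the 83 members. An upper bound of at most 0.5 was found for 54 of the lower genes. The members lack the 11 IDs that were set aside, whereas the lower genes are the full set. Median gene reads over both libraries were 91 for the members, 113.5 for all 94 IDs of the rule and 377 for the lower genes. Members and lower genes were chosen by their ratio, so these values are given without a test.

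Chemokines and immune cell genes were one of the recognisable groups, with 6 members at ratios of 2.00 to 3.46. The CC chemokine gene ccl34b.1, whose family attracts leukocytes, had a gene value of 4.81 in wildtype and 15.2 in the mutant library (41 and 118 reads). That was a ratio of 3.17 (2.20 to 4.64). The gene cxcl8b.3, a relative of mammalian interleukin-8, which draws neutrophils, had values of 0.599 and 2.07 (7 and 22 reads, ratio 3.46, 1.43 to 9.59). For cxcl20, a further CXC chemokine gene, the values were 1.46 and 3.37 (ratio 2.30, 1.36 to 4.02). The interval of cxcl8b.3 spans that of ccl34b.1, so counting error does not settle the order of the chemokines among themselves.

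The other immune members were irg1l, related to the mammalian gene of the itaconate-making enzyme of macrophages, with values of 3.33 and 7.06 (ratio 2.12, 1.77 to 2.54), and ms4a17a.8 of a family of multi-span membrane proteins, with 5.18 and 12.0 (ratio 2.31, 1.76 to 3.04). The receptor adaptor gene hcst stood at 0.657 and 1.32, and its ratio of 2.00 (0.914 to 4.62) rested on 11 and 20 reads. The wildtype values of cxcl8b.3 and hcst were under 1, so they were listed through the mutant library alone and had to differ in this direction. Among 8 chemokine genes with a gene value, 3 were members, where 0.906% of all symbols were 2-fold higher. The family was looked at because members belong to it, so these shares are no test of the family. The other five had ratios of 0.449 to 1.46, led by ccl25b at 1.46 (1.25 to 1.70), and the lowest was ccl33.3. A list of 27 acute inflammation and tissue damage genes, 10 of them measured, had ccl34b.1 as its only 2-fold higher gene (0.906% of all symbols were). Next in order were ptgs2b at 1.61 and ptgs2a at 1.52, the enzymes of prostaglandin synthesis. Its median log2 ratio was 0.14, against 0.06 over all symbols. Neutrophil markers had a median of -0.14 over 3 genes and macrophage markers 0.04 over 4 genes. The interferon list, with 3 of 20 genes measured, and the complement list, with 9 of 21, held no gene at 2-fold in either direction. The unmeasured genes of these lists could not be members.

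Regulators of transcription and chromatin made up 9 members, with ratios of 2.01 to 3.30. The best measured was mysm1, a deubiquitinase of histone H2A that blood formation needs in mammals, which went from a gene value of 3.64 to 8.50 (363 and 771 reads). Its ratio was 2.34 (2.06 to 2.66). The nuclear body ATPase gene morc3a had values of 2.27 and 4.56 (ratio 2.01, 1.72 to 2.37). The uspl1 gene, for a SUMO isopeptidase of the Cajal body, where small nuclear RNA particles mature, had 5.37 and 11.06 (ratio 2.06, 1.71 to 2.48).

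A link to small nuclear RNA also exists for snapc3, a subunit of the complex that starts transcription of small nuclear RNA genes. Its values of 27.5 and 64.8 were the highest of any member. For it 7 and 15 reads on 9 bp were recovered, and the interval of its ratio of 2.36 ran from 0.905 to 6.84. The true reads of snapc3 may be many times higher, and this interval far too wide. The partner genes snapc5 and snapc1b had ratios of 1.21 (1.00 to 1.47) and 0.949 (0.745 to 1.21). The remaining regulators were at low levels, with mutant values of 1.07 to 1.84 and wildtype values under 1. These regulators were listed through the mutant library alone and had to differ in this direction. They were rfxank (0.516 and 1.71, ratio 3.30, 1.14 to 11.6), a subunit of the RFX complex that drives MHC class II genes in mammals, the AP-1 subunit gene fosl1a (2.67, 1.53 to 4.82), the hydroxylase gene kdm8 (2.13), the retinoid X receptor gene rxrab (2.12) and the small Maf gene mafga (2.05). The AP-1 family genes fosab and fosl2, relatives of fosl1a, had ratios of 1.00 (0.833 to 1.21) and 0.987 (0.870 to 1.12). Their wildtype values were 5.17 and 5.08, so unlike fosl1a they could differ in either direction.

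DNA replication, repair and cell division was the largest of the role groups made by hand, with 12 members at ratios of 2.00 to 7.71. Roles were given to members only. The share of all IDs with such a role is therefore not known, and the size of a role group carries no comparison. Mutant values were low throughout, from 1.02 to 5.92. The wildtype values of msh3, fancg, cep44, skp2, nsmce1, smarcal1 and orc5 were under 1. These genes were listed through the mutant library alone and had to differ in this direction. The mismatch repair gene msh3 had the highest ratio of any member, with values of 0.212 and 1.64, on 3 and 21 reads. The resulting ratio of 7.71 had an interval from 2.30 to 40.3. Of its partners in mismatch repair, msh6 had a ratio of 1.71 (1.47 to 1.99) and pms1 one of 1.37 (1.08 to 1.75).

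The origin recognition complex, which marks where replication starts, had 2 subunits among the members. For orc4 the values were 2.70 and 5.92 (108 and 215 reads, ratio 2.19, 1.73 to 2.79). For orc5 they were 0.943 and 1.93 (22 and 41 reads, ratio 2.05, 1.19 to 3.62). The other four subunits had ratios from 1.01 (orc2, 0.757 to 1.34) to 1.76 (orc1, 1.33 to 2.35). With a wildtype value of 0.885, orc1 was listed through the mutant library alone, so its ratio had to be above 1.

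In the augmin complex, which nucleates spindle microtubules, haus5 was a member at values of 1.01 and 2.02 (ratio 2.00, 1.45 to 2.78). The partners haus3, haus6, haus4 and haus2 had ratios of 1.76, 1.59, 1.42 and 1.16. The interval of haus2 (0.713 to 1.90) included 1. Repair genes among the members were fancg of the Fanconi anaemia pathway (0.392 and 1.02, ratio 2.60, 1.60 to 4.33), nsmce1 (2.41), smarcal1, a helicase that restores stalled forks (2.28), and the uracil-DNA glycosylase gene unga (2.06, 1.47 to 2.92). Partners of nsmce1 in the SMC complex of repair, nsmce4a, nsmce2 and smc5, had ratios of 1.61 (1.08 to 2.43), 1.02 and 0.955, and the Fanconi genes fanca and fance had 1.27 and 1.02. Genes of division were skp2, an F-box protein gene of cell cycle entry (0.907 and 2.25, ratio 2.48, 1.79 to 3.46), cep44 of the centriole (2.51), mitd1 of abscission (2.28) and the kinetochore gene cenpo (2.17).

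A list of other DNA replication and cell cycle genes had a median log2 ratio of 0.37 over 18 measured genes. All 18 were above 0 and 0 were 2-fold higher, from cdk1 at a ratio of 1.01 to orc1 at 1.76 and gins2 at 1.88 (0.998 to 3.64). Among the 18, orc1 had to be above 0, because its wildtype value was 0.885 and it was listed through the mutant library alone. Of 16 measured genes of purine and pyrimidine synthesis, 14 were above 0, with a median of 0.39, and 0 were 2-fold higher. They were led by ppat and umps at ratios of 1.65 and 1.64. Of all IDs, 59.0% had a ratio above 1, and 0.906% of all symbols were 2-fold higher.

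RNA decay and transfer RNA genes numbered 4, at ratios of 2.07 to 2.30. The RNA exosome degrades and trims RNA in the nucleus and cytoplasm, and its subunit gene exosc5 had values of 2.51 and 5.31 (51 and 98 reads, ratio 2.12, 1.49 to 3.03). Its partners did not share a direction. Of 10 measured, 5 were above 1, led by exosc2 at 1.58 (1.25 to 2.01), and 5 below, with exosc9 at 0.640 (0.467 to 0.870) and exosc1 at 0.678 (0.534 to 0.858). The transfer RNA methyltransferase gene trmt13 had a ratio of 2.30, the pseudouridine synthase gene pus3 one of 2.07 and ptrhd1, with a peptidyl-tRNA hydrolase domain, one of 2.07. With a wildtype value under 1, pus3 had to differ in this direction.

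Of the mitochondrial genes, 5 were members. The phosphatase gene ptpmt1, which makes phosphatidylglycerol for cardiolipin, had values of 1.94 and 5.43 (59 and 150 reads, ratio 2.80, 2.06 to 3.85). The gene chchd4a codes for the import receptor of the intermembrane space and had 4.33 and 9.01 (ratio 2.08, 1.66 to 2.62). Its oxidase partner gfer had 1.59 (1.13 to 2.27). For chchd3b, a subunit of the MICOS complex that shapes cristae, the values were 3.03 and 6.16 (ratio 2.04, 1.56 to 2.68). Its close relative chchd3a had a ratio of 0.964 (0.828 to 1.12) at a higher level, 24.3 and 23.5. The other MICOS genes measured had ratios of 0.937 to 1.07. The 2 last genes were me2, a malic enzyme (8.83 and 20.3, ratio 2.29, on 12 and 25 reads), and mpv17l2 of the mitochondrial ribosome (2.01, 1.48 to 2.74). The recovered length of me2 was 48 bp, so its true reads may be many times higher. On the list of mitochondrial protein genes ptpmt1 was the only one of 19 at 2-fold, where 0.906% of all symbols were 2-fold higher. That list was chosen with earlier results of these data known. Next were the chaperonin genes hspd1 (1.72) and hspe1 (1.39).

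Enzymes of sugars and glycans gave 8 members with ratios of 2.16 to 3.15. Both gale and galk1 act in the conversion of galactose to glucose units. The epimerase gene gale had values of 2.37 and 5.40 (96 and 199 reads, ratio 2.28, 1.78 to 2.94), and the kinase gene galk1 had 1.63 and 3.53 (69 and 136 reads, ratio 2.17, 1.61 to 2.94). Other genes of this route had lower ratios, with galk2 at 1.24 (0.905 to 1.71), galm at 0.983 (0.809 to 1.19), ugp2a at 0.993 and pgm1 at 0.795 (0.748 to 0.845). Glycan-building genes were b3galt10.1 (0.462 and 1.45, ratio 3.15, 1.28 to 8.80), the Golgi mannosidase gene man2a1 (2.69), the nucleotide sugar transporter gene slc35d1a (2.24) and poglut1, which adds glucose to Notch (2.16). The wildtype values of b3galt10.1, man2a1 and slc35d1a were under 1, so these genes had to differ in this direction. The glucuronosyltransferase gene ugt2b6 had 4.84 and 11.6 (ratio 2.39, 1.44 to 4.05). The glycogen targeting subunit gene ppp1r3b had 1.63 and 3.70 (ratio 2.26, 1.75 to 2.96).

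Other enzymes of small molecules gave 6 members. The D-amino acid oxidase gene dao.1 had values of 3.34 and 8.45 (105 and 241 reads, ratio 2.53, 2.00 to 3.21), and the reductase gene cyb5r2 had 5.05 and 11.2 (181 and 366 reads, ratio 2.23, 1.86 to 2.67). The Hsp90 cochaperone gene ptges3b had 12.2 and 25.2 (ratio 2.06, 1.44 to 2.99), on a recovered length of 139 bp, so its interval may be too wide. Lower in level were urad of urate breakdown (2.20), the nicotinamide riboside kinase gene nmrk1 (2.20) and the nucleotidase gene nt5c1aa (2.07). With wildtype values under 1, nmrk1 and nt5c1aa had to differ in this direction.

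Of 6 transporter and channel genes, slc51a had the most reads of any member. It codes for a subunit of the basolateral bile acid transporter of the intestine and had values of 10.9 and 24.7 (479 and 983 reads), a ratio of 2.26 (2.02 to 2.52). The intestine markers had a median log2 ratio of -0.23 over 6 genes, of which 1 was above 0. The tandem-pore potassium channel genes kcnk5a (2.06 and 4.21, ratio 2.05, 1.62 to 2.59) and kcnk1b (0.734 and 2.05, ratio 2.79, 1.43 to 5.78) were both members. The other measured channels of that family, kcnk15, kcnk5b and kcnk6, had ratios of 1.46, 1.31 and 1.28. The wildtype values of kcnk1b and kcnk15 were 0.734 and 0.903. These 2 genes were listed through the mutant library alone, and their ratios had to be above 1. The cation channel gene trpm1b, a relative of the mammalian channel of retinal bipolar cells and melanocytes, had 5.54 and 12.0 (129 and 253 reads, ratio 2.16, 1.74 to 2.69). The photoreceptor markers had a median log2 ratio of -0.17 over 7 genes. The transporter genes slc22a13b (2.39) and slc38a11 (5.50, on 1 and 5 recovered reads over 171 bp) were weakly expressed, with wildtype values under 1.

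Membrane traffic, cytoskeleton and matrix accounted for 8 members. The scramblase gene tmem41b, which autophagy needs, had values of 1.61 and 3.71 (91 and 190 reads, ratio 2.30, 1.78 to 2.98). For the matrix gene efemp2a of the fibulin family the ratio was 2.51 (1.81 to 3.52) and for the collagen cross-linking enzyme gene loxl2a it was 2.08 (0.877 to 5.29). Other members were sft2d2a (2.59), the secreted leucine-rich protein gene lgi2a (2.29), the septin gene septin10 (16.8 and 38.0, ratio 2.26, 1.29 to 4.07), the inositol phosphatase gene ocrl (6.73 and 14.3, ratio 2.13, 1.13 to 4.18) and the cilium gene cfap77 (2.04). The recovered lengths of septin10 and ocrl were 42 and 84 bp, so their intervals may be too wide. With wildtype values under 1, sft2d2a, loxl2a and cfap77 had to differ in this direction. No role was assigned to 19 members, 6 of them without a symbol, at ratios of 2.02 to 5.50. Among these zgc:113229 had 0.493 and 1.57 (30 and 87 reads, ratio 3.19, 2.09 to 5.01), NM_001076705 had 3.82 and 10.7 (203 and 518 reads, ratio 2.81, 2.38 to 3.32), and zgc:136308 had 0.529 and 2.91 (4 and 20 reads, ratio 5.50, 1.84 to 22.1). For NM_001114919 the ratio of 4.40 rested on 1 and 4 recovered reads. For NM_001006099, at values of 7.57 and 22.2 (ratio 2.94), 3 and 8 reads on 14 bp were recovered, so its true reads may be many times higher and its interval far too wide. The last of the highest ratios were those of NM_001111180 (3.49, 1.34 to 10.7), NM_001122619 (2.91, 1.54 to 5.83) and si:ch1073-126c3.2 (2.82, 1.55 to 5.38). The wildtype values of zgc:113229, zgc:136308, NM_001114919, NM_001111180, NM_001122619 and si:ch1073-126c3.2 were under 1, so they too had to differ in this direction.

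**Figure D3:**
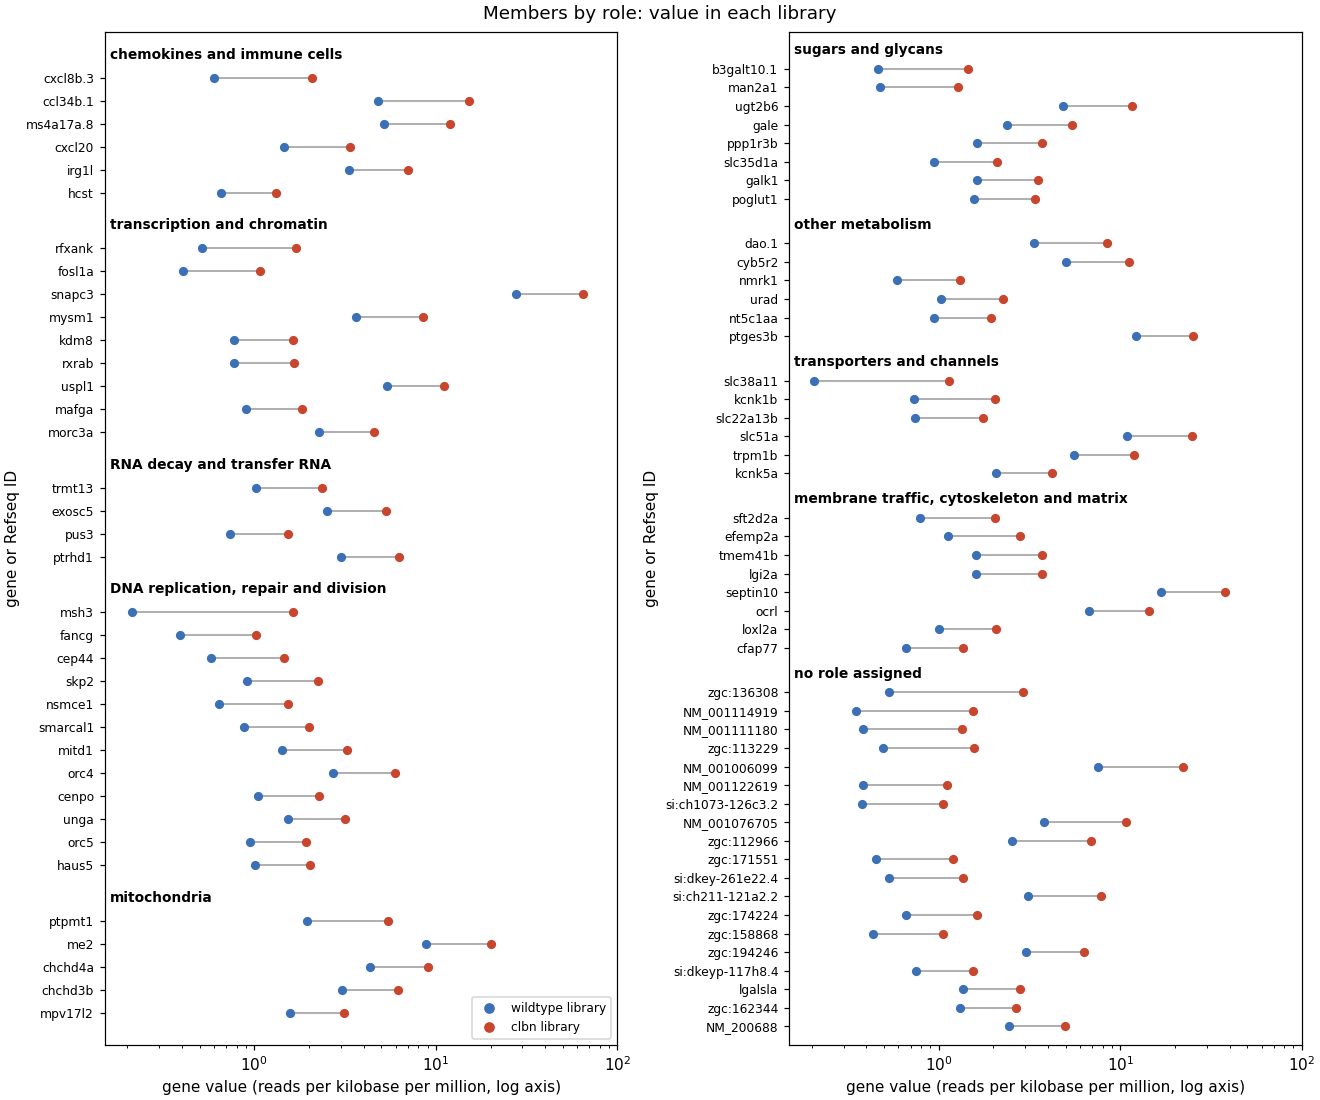
Gene value of each of the 83 members in the wildtype library (blue) and the clbn library (red), RPKM-like on a log axis, grouped by role and ordered by ratio within a role. Median ratios by group were 2.08 to 2.67, the widest gaps are those of msh3, slc38a11 and zgc:136308, and levels differ far more between genes than between libraries.

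The values on both sides of the thresholds were close. Just inside the ratio of 2 were hcst, haus5, mpv17l2, morc3a and NM_200688, at 2.00 to 2.02. Just outside were LOC100002960 at 1.998 and st6galnac2, aldh18a1 and cep135 at 1.98 to 1.99, and 30 IDs lay between 1.9 and 2. The 5 lowest mutant values of members were 1.02 (fancg) to 1.11 (NM_001122619). That 0 IDs with a 2-fold ratio had a mutant value under 1 follows from the listing, which needs at least 1 value of 1 or more.

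Intronic reads, which can come from unspliced RNA, were compared between the libraries in the same way. These reads come from the same libraries that chose the members, so the comparison is again descriptive. In all, 222 introns of members were listed, each with at least 1 read in both libraries, and 51 introns in 33 members had at least 20 reads over both. Scaled by the library total, these 51 had a median log2 ratio of 0.84 (mutant over wildtype, pseudocount 0.5). The 20223 introns of all IDs with at least 20 reads had a median of 0.05. At least 2-fold higher were 23 of the 51 (45.1%, against 9.02% of the 20223), and 1 was at least 2-fold lower (1.96% against 7.05%).

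Summed over the introns of a gene, 46 members had at least 20 intronic reads, as had 8342 of all IDs. Of the 46 members, 35 were above wildtype (76.1%, against 57.9% of the 8342 IDs). At least 2-fold higher were 16 of the 46 (34.8%, against 4.57% of the 8342 IDs). The median log2 intronic ratio of the 46 was 0.55, below the median log2 gene ratio of the same members, 1.18. For 15 members the whole counting interval of the intronic ratio lay below the gene ratio (9.51% of the 8342 IDs), and for 3 it lay above (13.9% of the 8342 IDs). Here the gene ratio, which the rule set at 2 or more, was taken as exact. With its own interval, 5 members lay apart below and 1, zgc:162344, above. The 15 include msh3, whose single listed intron of 225407 bp had 245 and 186 reads (ratio 0.836, 0.687 to 1.02), and smarcal1, whose introns had 736 and 607 reads (0.908, 0.814 to 1.01). For the ID NM_200688 intronic reads were lower in the mutant library, with 412 and 249 reads (0.665, 0.566 to 0.781). The poglut1 introns were lower too, with 21 and 7 reads (0.367, 0.132 to 0.896). Among the 5 members apart below, recovered gene reads were far fewer than intronic reads in msh3 (3 and 21) and smarcal1 (41 and 85). The same held for NM_200688 (37 and 68) and zgc:174224 (16 and 36), whereas poglut1 had more gene reads (60 and 118). Whether such intronic reads come from transcripts of the member itself was not tested, and the use of strand is not known.

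**Figure D4:**
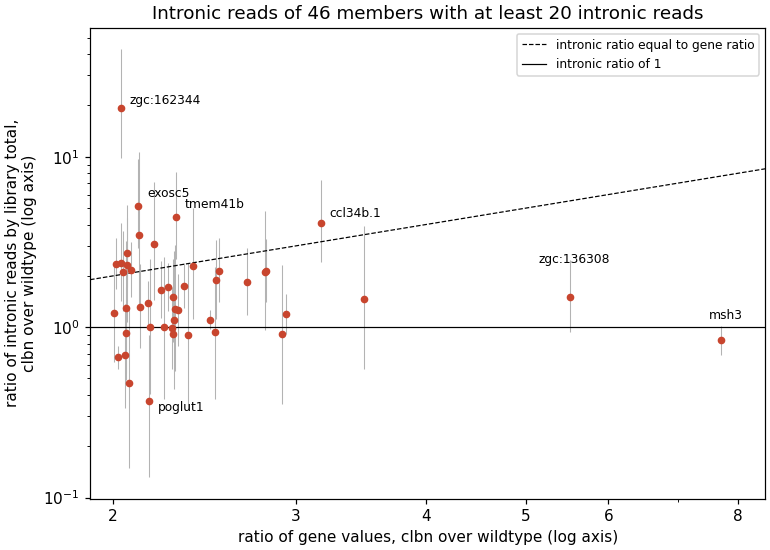
Ratio of summed intronic reads by library total (y axis, log) against the ratio of gene values (x axis, log), clbn over wildtype, for the 46 members with at least 20 intronic reads, with 95% counting intervals. Of the 46 points 35 lie above an intronic ratio of 1, and zgc:162344, exosc5 and tmem41b lie above the dashed line with their whole interval.

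The 3 members above their gene ratio were zgc:162344, exosc5 and tmem41b. Intronic reads of zgc:162344 went from 9 to 157, a ratio of 19.2 (9.86 to 42.8), while its gene value went from 1.31 to 2.67. In exosc5 they went from 15 to 70 (5.14, 2.91 to 9.66), and in tmem41b from 16 to 64 (4.40, 2.52 to 8.16). Next were ccl34b.1 with 18 and 67 reads (4.10, 2.41 to 7.33), irg1l with 6 and 19 (3.49, 1.34 to 10.7) and orc4 with 10 and 28 (3.08, 1.45 to 7.11), whose intervals include their gene ratios. Among members with many intronic reads, zgc:174224 had 485 and 487 (1.11, 0.973 to 1.26), NM_001006099 had 110 and 119 (1.19), trpm1b had 87 and 110 (1.39, 1.04 to 1.87) and slc51a had 66 and 103 (1.72, 1.25 to 2.38).

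Single introns stood out within several of these genes. In zgc:162344 the second listed intron, at chromosome 21, 10465510 to 10477111 (build Zv9, as all positions here), had 3 wildtype and 108 mutant reads, which with 3 wildtype reads gives a ratio of 39.6 with a counting interval from 13.2 to 195. The third, at 10477237 to 10480634, had 5 and 44 reads (9.69-fold, 3.85 to 31.3), and the first had 1 and 5. In exosc5 the first listed intron, at chromosome 18, 34400706 to 34402971, had 11 and 68 reads (6.80-fold, 3.57 to 14.3), whereas the second had 4 and 2. In tmem41b the middle one of 5, at chromosome 7, 66968276 to 66971884, had 4 and 33 reads (9.08-fold, 3.23 to 35.3).

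The uspl1 intron at chromosome 10, 37683494 to 37685211, had 3 and 25 reads (ratio 9.17, 2.80 to 47.5), while the next intron had 21 and 32 (1.68, 0.938 to 3.06). In morc3a 2 adjacent introns of the 10 listed were high, with 3 and 30 reads at chromosome 9, 31604469 to 31605580 (ratio 11.0, 3.42 to 56.4), and 2 and 27 reads at 31602434 to 31603094 (ratio 14.9, 3.73 to 129). The last morc3a intron, with the most wildtype reads, had 21 and 18 (0.944, 0.474 to 1.86). The 15 listed introns of mysm1 were mixed, from 2 and 13 reads in the first and in the third to 23 and 13 in the twelfth. The lowest intron ratios among those with at least 20 reads were in mitd1 (14 and 6 reads), cyb5r2 (14 and 7) and orc5 (17 and 9), each with an interval that includes 1. Introns of loxl2a and NM_001076705 had 45 and 88 reads (2.15, 1.49 to 3.16) and 29 and 68 reads (2.58, 1.65 to 4.14). In morc3a and mysm1 the intervals of the introns with the highest ratios lay above that of the intron with the most wildtype reads. In uspl1, exosc5, tmem41b and zgc:162344 the intervals of the introns overlapped. The introns compared were picked by these same reads, and those of mysm1 with 2 and 13 reads are under the minimum of 20. Whether introns of a gene differ was therefore not tested.

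**Figure D5:**
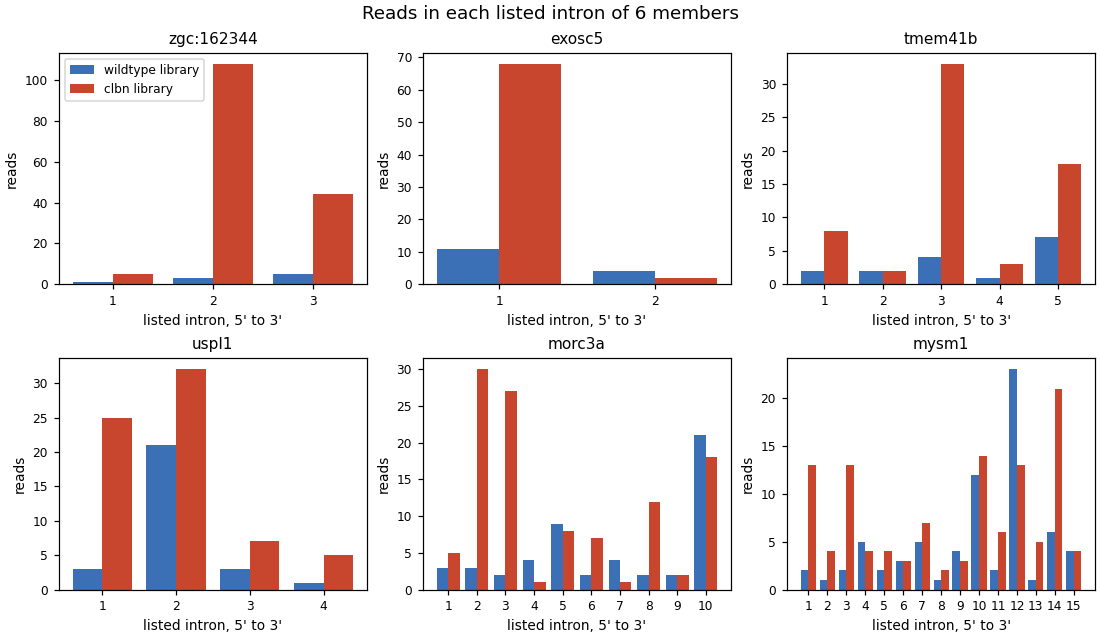
Reads in each listed intron, ordered from 5' to 3' of the gene (x axis), in the wildtype library (blue bars) and the clbn library (red bars), for 6 members. In 5 of them 1 or 2 introns hold most of the gain, such as the second intron of zgc:162344 with 3 and 108 reads, while in mysm1 gains are spread and the twelfth intron has 23 and 13 reads.

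Relative to the gene value, 7 of 51 member introns had a counting interval of intronic reads above 1. They lay in 5 genes, zgc:162344, exosc5, tmem41b, uspl1 and morc3a. Of all introns, here again the 20223 with at least 20 reads, 10.9% had such an interval. An interval below 1 was found for 14 member introns in 14 genes (8.09% of all introns). The median log2 ratio over the gene value was -0.40 for member introns and 0.03 for all introns. That ratio has the mutant gene value in its denominator, so it is lowered by the way the members were chosen. At least 2-fold higher on this scale were 8 of 51 (8.12% of all introns), and 15 of 51 were at least 2-fold lower (6.53% of all introns).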

How the data were processed

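Poly(A) RNA of 1 wildtype and 1 clbn pool was sequenced on the SOLiD platform after 18 cycles of amplification, per the labels' protocols. The authors deposited a table of 55660 introns of Refseq gene models with whole read counts per intron and library. They also deposited intron levels as RPuKM, a form of RPKM per unique intron length, with log2 columns and fold (ratio) columns that were not used. The build is Zv9 per the submitters' processing notes, and the aligner and counting tool, including any use of strand, are not given in the sources at hand. Per the file headers, the deposited gene value has no unit. With the library totals recovered from the RPuKM values, 10223 of 10223 gene values equalled whole reads over a whole length within 1e-06 bp, and the smallest solution was used.

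Symbols came from a Refseq table of GRCz12tu, used for names only, which matched 95.8% of IDs. Medians and counts over introns required 20 reads or more in total, whereas some introns with fewer reads are given within single genes. Log2 intronic ratios, and counts made from them, had a pseudocount of 0.5 on intronic reads. Intronic ratios not on the log2 scale, and their intervals, used reads without a pseudocount, and gene ratios used the deposited values. Amplified reads are not independent molecules, so intervals cover counting error only. Introns listed under several IDs have no gene value, and 3 of them that name a member were not used. Start positions were raised by 1 to count from 1.

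The members, role groups, gene lists and sets of partner genes were chosen with earlier results of these data known. Role groups and partner sets were written by hand after the member names were seen, partner sets as whole complexes or families. Any member could be named. Values were given for the 15 with the highest ratio, the 10 with the highest mutant value, the 10 with the most mutant intronic reads, the 5 IDs on each side of a threshold and members on a list, and for introns the 8 with the most reads and the 6 highest and 6 lowest ratios. Further values follow the roles and partner sets. Lists without a 2-fold gene are mostly given by their median. Some genes that these rules or sets include are not reported here. No promoter motifs were searched, because no sequence was at hand. Read recovery and the interval calculation were each run on simulated data. How often an interval built from recovered reads holds the true ratio was not tested. Python 3.11.15, pandas 2.3.3, numpy 2.4.6, SciPy 1.17.1 and matplotlib 3.10.9 were used.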

Additional observations from a re-analysis of the deposited data

How the results depend on the processing

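The number of members, 83, depends on the minimum set on level and counting error. It was 54 with a mutant value of at least 2, 8 with a lower interval bound of at least 2 and 46 with a wildtype value of at least 1, the last chosen after seeing the data. Median ratio scaling, which lowers every log2 ratio by 0.05 because the median over all IDs is 0.05, left 64 members. Over the same 83 members it moved the median log2 ratio from 1.19 to 1.14, by that shift alone. Scaling by summed gene reads gave 90 members. With at least 50 gene reads 58 remained, and with a recovered length of at least 200 bp 73. A mutant value of at least 0.5 gave 83 again, but this outcome was fixed in advance. An ID is listed only if at least 1 of its values is 1 or more, so a lower minimum could add no ID. A pseudocount of 1 on the gene value left 17 of 83 ratios at 2 or more, with a range of 1.40 to 2.80. The median log2 intronic ratio by library total, 0.84, was 0.55 with 1 value per gene and stayed positive under the other settings tried (at least 5 or 50 reads, pseudocount 5, either strand, and, added later, longer genes or a wildtype value of at least 1), from 0.62 to 1.04. Over the gene value the median stayed negative, from -0.59 to -0.31. No paired analysis was possible because each genotype has 1 library. Counting intervals are widest for members with few recovered gene reads, which are under 50 in 25 members, though recovered reads can understate the depth where the recovered length is short, as in snapc3 at 9 bp.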

Other observations

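Members were unevenly placed on the chromosomes. Chromosome 5 held 12 of the 83 (14.5%), although 6.202% of all IDs lie there, so that 1.89% of its 634 IDs were members, against 0.812% of all IDs. They were me2, ugt2b6, dao.1, cfap77, fancg, cxcl20, zgc:112966, msh3, man2a1, NM_001076705, rxrab and unga. The lowest start positions of listed introns were 7033416 in me2 and 70348123 in unga, so the 12 span most of the chromosome rather than one stretch. Lower genes were not frequent there, with 4 IDs (0.631%, against 1.16% of all IDs), and the median log2 ratio of all IDs on the chromosome was 0.08, against 0.05 overall. Chromosome 14 held 7 members (8.43%, with 3.45% of IDs), chromosome 22 held 6 (7.23%, with 3.33% of IDs) and chromosome 15 held 0 of 331 IDs. These shares were noticed in the data and carry no test.

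On chromosome 24, which carries rnpc3, 5 members were found among 286 IDs (1.75%). The chemokine gene ccl34b.1 lies 1.59 Mb from rnpc3, slc51a 4.29 Mb, urad 7.57 Mb, pus3 7.96 Mb and slc22a13b 9.24 Mb. All were measured between the lowest start positions of the listed introns, whatever the strand. The same chromosome had 7 lower IDs (2.45%), rnpc3 among them.

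Members that lie side by side were few. The listed introns of kdm8 and nsmce1 on chromosome 3 are 17.1 kb apart and on opposite strands, those of NM_001006099 and ptges3b on chromosome 23 are 17.8 kb apart on the same strand, and those of efemp2a and fosl1a on chromosome 14 are 62.1 kb apart on the same strand. The next closest pair, snapc3 and poglut1, was 657 kb apart. The members also had fewer listed introns than other genes, with a median of 2 against 4, and 31.3% of them had a single one (16.98% of all IDs). Only introns with reads in both libraries are listed.

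The lists of stress responses held no member, where 0.906% of all symbols were 2-fold higher. At that share, lists of this size would mostly hold none. Measured were 19 of 24 symbols of the integrated stress response, 12 of 19 of heat shock and 13 of 18 of NRF2. A gene without a listed intron, which needs reads in both libraries, has no gene value and could not be a member. The integrated stress response list had a median log2 ratio of 0.09 over 19 genes and 0 genes at 2-fold, with aldh18a1 highest at 1.99 (1.21 to 3.35) and slc3a2a lowest at 0.686. Heat shock and chaperone genes had 0.36 over 12 genes, led by hspd1 at a ratio of 1.72. The NRF2 list had -0.20 over 13 genes, 1 of them 2-fold lower, the circadian clock list -0.15 over 15, the fasting list -0.17 over 13 with 1 gene 2-fold lower, the glucocorticoid list 0.07 over 12 and the hypoxia and glycolysis list 0.06 over 14. Transfer RNA synthetases had 0.22 over 12 genes, proteasome genes 0.23 over 21, autophagy and lysosome genes -0.02 over 14 and amino acid enzymes 0.00 over 24.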
